A study of Mus musculus with 6 samples.

Results

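The surface genes that B cells gain on the way from the immature to the mature stage, together with the receptors for the survival factors BAFF and APRIL, were followed in RAG2 reporter-positive B lineage cells of 2 mouse tissues. The members were named by symbol: Ms4a1, Fcer2a, Cr2, Cd22, Cd72, Cd40, Cd83, Tnfrsf13b, Tnfrsf13c and Tnfrsf17. All 10 had exactly 1 probe set of their own among the 19938 genes measured. The small intestinal lamina propria, the connective tissue beneath the gut epithelium, gave 3 pools of sorted cells, and the bone marrow, where B cells form, gave another 3. Both tissues came from RAG2-GFP/129Sve mice of 17 to 25 days kept under SPF conditions, so the reporter, strain and age were shared by the groups, and no other treatment is given in the labels. Each experiment took 8 to 12 mice, so a value is an average over pooled animals. Green fluorescence under the Rag2 reporter marks cells that are recombining their receptor genes or did so recently, and the protein can outlast the transcript. Each pool was hybridised to 1 array, and the values are log2 values after robust multi-array averaging (RMA), on which a difference of 1 is a doubling. The number of arrays, 3 a tissue, limits the precision. Fewer cells of a type and less RNA per cell cannot be told apart in such pools.

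Newly formed B cells leave the marrow as transitional cells, which carry IgM but few of the proteins of a follicular B cell. They then depend on BAFF, a cytokine of the TNF family, which is read through the BAFF receptor (Tnfrsf13c). The related receptors TACI (Tnfrsf13b) and BCMA (Tnfrsf17) also bind APRIL, and BCMA is best known from plasma cells. CD23 (Fcer2a) and CD21 (Cr2) appear at the late transitional stage, whereas CD72 is on B lineage cells from early on.

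The lamina propria pools were not alike, and this touches every result. Across genes, pools 1 and 2 correlated with the bone marrow arrays at r = 0.766 to 0.829, whereas pool 3 correlated with them at 0.954 to 0.966. In pools 1 and 2, dim genes lay higher and bright genes lower than in the marrow: the 4241 genes with a marrow mean of 4 to 5 had median differences of 0.52 and 0.54, and the 1953 genes at 7 to 8 had -1.02 and -1.07. In pool 3 these medians were 0.01 and -0.05. The cause of this shift was not tested. The 7 measured B lineage markers, which check the labelled cell type, had mean values of 9.51 to 9.77 in the lamina propria pools and 9.35 to 10.17 in the marrow pools, where the array medians were 5.34 to 5.48. Of these markers 1 had a positive difference, against 67.6% of all genes, and 6 a negative one, with a median of -0.22. Without overlap 0 were higher, against 14.8% of all genes, and 0 lower, against 7.27%. Their marrow means ran from 7.48 to 11.66, levels at which most genes lay lower in pools 1 and 2. The B lineage medians were -0.33, -0.17 and -0.03 in pools 1 to 3. Intestinal epithelial markers were higher in the lamina propria for 7 of 7 genes, against 67.6% of all genes, and 2 were without overlap, against 14.8%. Their mean values were 5.12 to 5.47 against 4.82 to 4.91 in the marrow, a level at which most genes lay higher in pools 1 and 2. In pool 3, 4 of the 7 epithelial markers lay above all marrow pools, against 24.8% of all genes. Their median there was 0.27 above the marrow mean, against -0.01 over all genes.

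Of the 10 genes, 8 had a higher mean in the lamina propria and 2, Ms4a1 and Cr2, a lower one, and none of these differences passed the test. At the 0.05 threshold limma called 0 members in either direction, as it called 0.0% of all genes higher and 0.0% lower. The adjusted p of the members ran from 0.356 to 0.936. A positive difference was common in these arrays, at 67.6% of all genes. Without overlap between the tissues, 4 members lay higher (Cd83, Cd22, Tnfrsf13c and Tnfrsf17), against 14.8% of all genes, and 0 lay lower, against 7.27%. The median difference of the members was 0.31, against 0.22 over all genes. The latter was 0.12 with either other scaling of the arrays, so the members' differences are to be read against a general upward shift. After median centring 3 members were higher without overlap (13.6% of all genes) and 0 lower (8.36%). Without marrow pool 1, 6 were higher without overlap (21.6%) and 0 lower (9.64%). Quantile normalization gave 4 (13.0%), with Cd40 in place of Cd22, and 1 lower, Cr2 (8.14%). Array weights, which called 16.9% of all genes higher and 11.1% lower, called 0 members. Lamina propria pool 3 had the lowest weight, 0.15, against 0.70 to 2.80 for the other arrays. The weighted fit thus resembles the fit without that pool, and a pass in both is not 2 separate results. An intensity trend with robust variances called 0 members, against 0.00502% of genes higher and 0.196% lower.

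**Figure D1:**
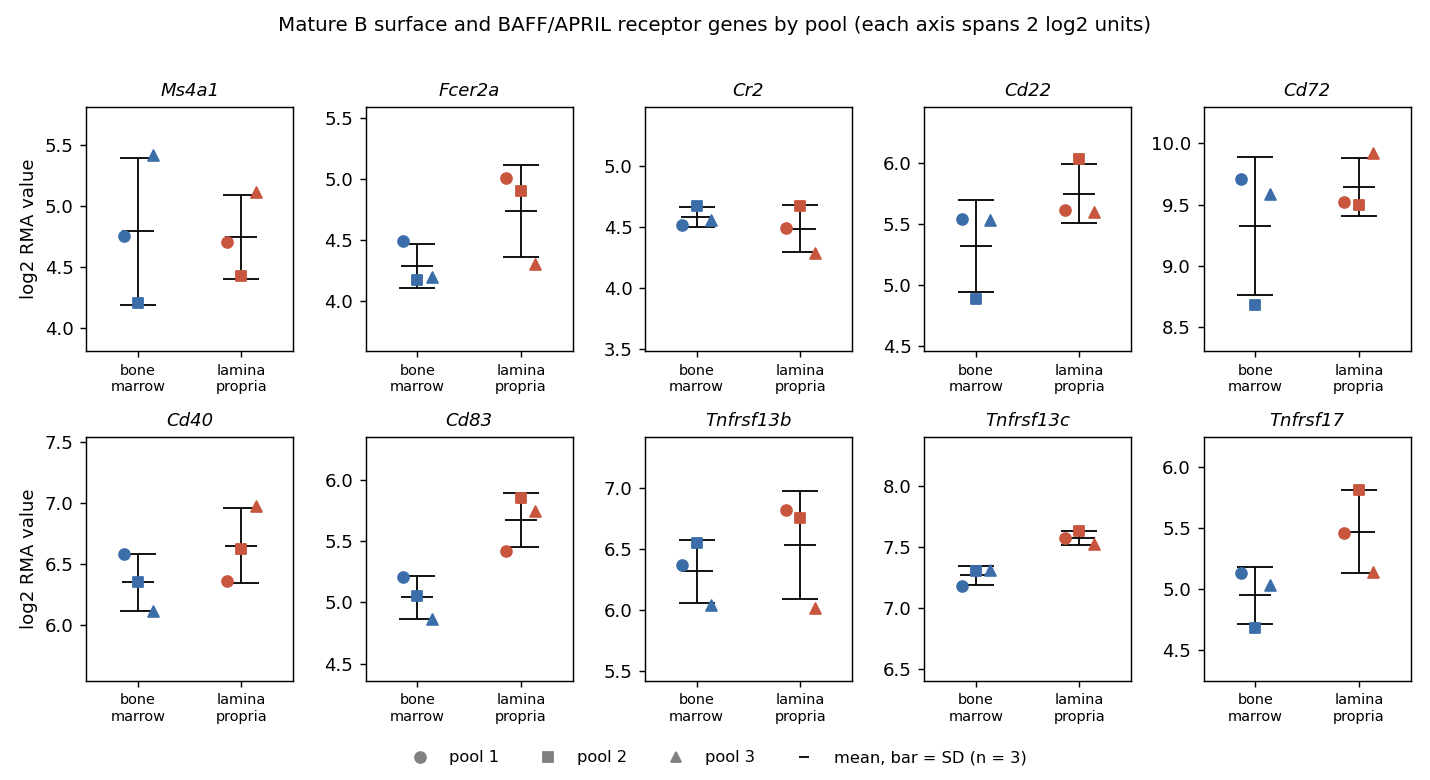
Log2 RMA values of the 10 genes in the 3 bone marrow (blue) and 3 lamina propria (red) pools, with symbols for the pool numbers, the mean and the SD. Every axis spans 2 log2 units. The tissues do not overlap for Cd22, Cd83, Tnfrsf13c and Tnfrsf17.

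The BAFF receptor gene Tnfrsf13c gave the tightest values of the family. It read 7.57, 7.63 and 7.52 in lamina propria pools 1 to 3 and 7.18, 7.31 and 7.31 in marrow pools 1 to 3. All lamina propria pools thus lay above all marrow pools, by a gap of 0.21, and both tissues spread by less than that gap. The lamina propria mean of 7.57 ± 0.05 exceeded the marrow mean of 7.27 ± 0.08 (SD, n = 3 each) by 0.31 (95% interval -0.12 to 0.74, limma adjusted p = 0.372), or 1.24-fold. The interval is wide beside the SD because limma draws each variance towards that of all genes. Genes of the same marrow level, 7 to 8, mostly lay lower in pools 1 and 2, while Tnfrsf13c lay 0.31 and 0.36 above its marrow mean there, and 0.25 above it in pool 3. Of those 1953 genes, 37 (1.89%) were higher without overlap. With quantile normalization of the arrays the difference was 0.77 (limma adjusted p = 0.367), and with median centring 0.21.

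TACI, encoded by Tnfrsf13b, split the lamina propria pools. Its values were 6.82, 6.75 and 6.02 in the lamina propria and 6.36, 6.54 and 6.03 in the marrow. Pools 1 and 2 lay above all marrow pools and pool 3 just below all of them. The difference of 0.22 (95% interval -0.45 to 0.88, limma adjusted p = 0.606) thus averages opposite readings, and against pool 3 alone it was -0.30.

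BCMA, the APRIL receptor encoded by Tnfrsf17, read 5.46, 5.82 and 5.14 in the lamina propria and 5.13, 4.68 and 5.04 in the marrow. The tissues did not overlap, but the gap was 0.009, well under the spread of either tissue. The difference was 0.52 (95% interval -0.07 to 1.11, limma adjusted p = 0.356), or 1.44-fold. Genes of its marrow level had median differences of 0.52 (pool 1) and 0.54 (pool 2), where Tnfrsf17 itself lay 0.51 and 0.87 higher, and 24.0% of them were higher without overlap. In pool 3 it lay 0.19 above the marrow mean. Plasma cell markers moved in both directions, with 4 of 7 higher in the lamina propria, against 67.6% of all genes, 2 of them without overlap, against 14.8%. Their mean value was 5.46 to 6.23 in the lamina propria pools and 5.35 to 5.83 in the marrow pools. Jchain, which links antibody polymers, read 4.79, 3.83 and 4.64 against 3.24, 2.78 and 3.01, and Sdc1, the plasma cell surface marker CD138, differed by -0.03. The part of plasma cells in the Tnfrsf17 values was not tested.

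The inhibitory receptors CD22 and CD72 carry motifs in their tails that recruit phosphatases and dampen B cell receptor signals. Cd22 read 5.62, 6.03 and 5.60 in the lamina propria and 5.55, 4.89 and 5.54 in the marrow. There was no overlap, by a gap of 0.05, with marrow pool 2 far below the other marrow pools. The difference was 0.43 (95% interval -0.19 to 1.04, limma adjusted p = 0.377), and 0.21 without marrow pool 2. Of the genes at its marrow level, 5 to 6, 17.1% were higher without overlap. After either median centring or quantile normalization the tissues overlapped for Cd22.

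Cd72 read 9.52, 9.50 and 9.92 in the lamina propria and 9.71, 8.68 and 9.59 in the marrow. The tissues overlapped, and the difference of 0.32 (95% interval -0.42 to 1.06, limma adjusted p = 0.507) rested on marrow pool 2, without which it was -0.003. Lamina propria pools 1 and 2 lay below the other marrow pools. In all 6 arrays the gene lay well above the array median. The 426 genes with a marrow mean of 9 to 10 had medians of -1.03 and -1.10 in pools 1 and 2. There Cd72 lay 0.20 and 0.17 above its marrow mean and inside the marrow range, whereas most genes of that level lay lower. Of those 426 genes, 1.64% were higher without overlap. In pool 3 Cd72 lay 0.59 above the marrow mean and above each marrow pool.

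**Figure D2:**
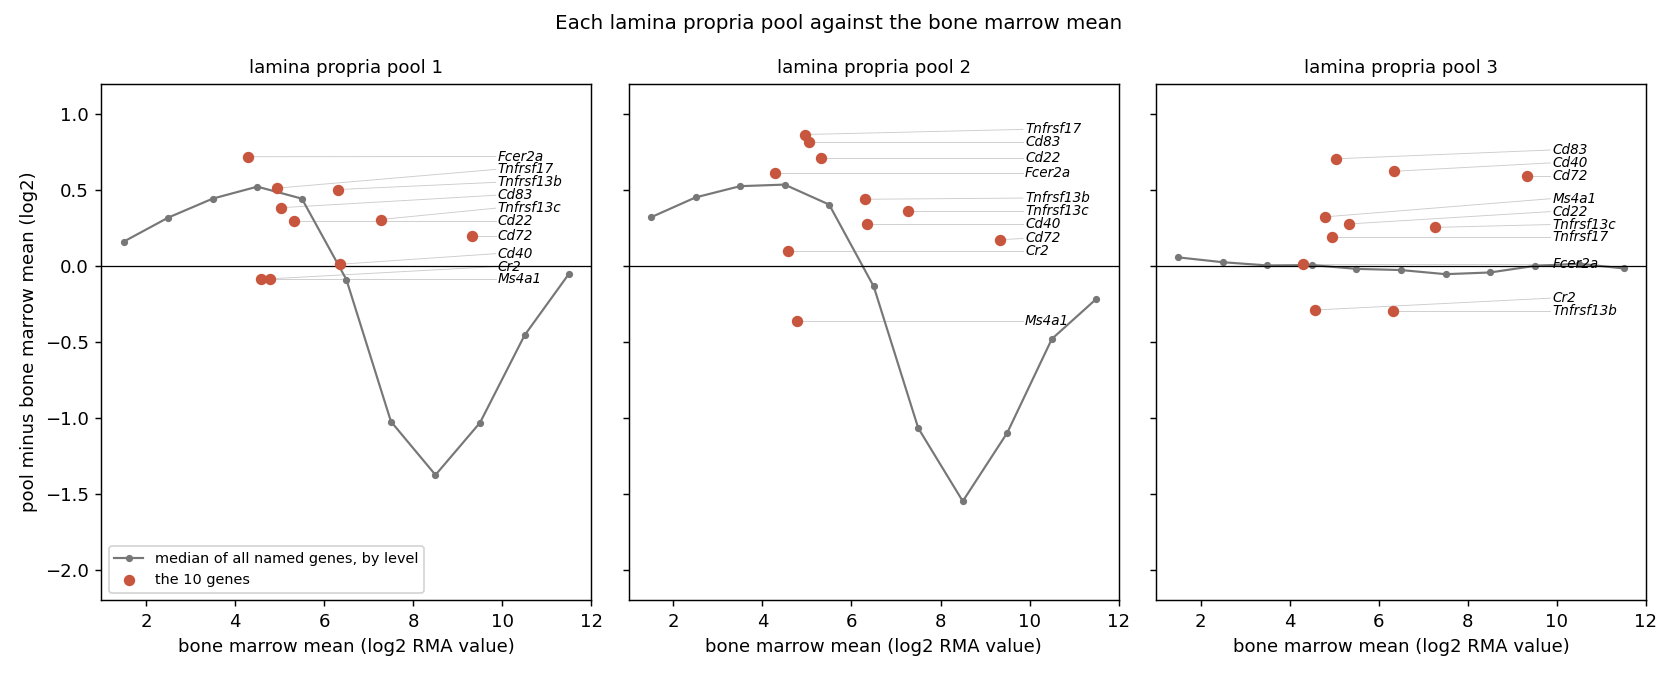
Difference of each lamina propria pool from the bone marrow mean (log2) against the bone marrow mean (log2 RMA value). Red points are the 10 genes and the grey line is the median of all named genes in steps of 1 unit of marrow level, for steps of at least 20 genes. In pools 1 and 2 the line falls to -1.38 and -1.55 at a level of 8 to 9 while Tnfrsf13c and Cd72, at levels of 7 to 8 and 9 to 10, stay above 0, and in pool 3 it stays near 0.

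The windows before the start of these receptor genes are shown because Cd22, Tnfrsf13c and Tnfrsf17 are members without overlap and Cd72 encodes an inhibitory receptor like CD22. RefSeq (GRCm38.p6, a C57BL/6J genome, not the 129Sve strain of the mice) gave start site windows for 7 of the 10 members, 9 windows in all. Those of Ms4a1, Cd40 and Cd83 are not shown. Each sequence below is the 250 bases before the start, 5′ to 3′ on the strand of the gene, with motif matches in capitals.
Cd22 (chr7:30879029-30879278, minus strand): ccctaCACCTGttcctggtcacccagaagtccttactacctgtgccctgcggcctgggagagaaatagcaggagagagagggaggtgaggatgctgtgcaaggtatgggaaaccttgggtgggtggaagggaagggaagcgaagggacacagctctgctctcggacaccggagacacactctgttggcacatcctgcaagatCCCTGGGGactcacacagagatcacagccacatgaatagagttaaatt
Cd72 (chr4:43454627-43454876, minus strand): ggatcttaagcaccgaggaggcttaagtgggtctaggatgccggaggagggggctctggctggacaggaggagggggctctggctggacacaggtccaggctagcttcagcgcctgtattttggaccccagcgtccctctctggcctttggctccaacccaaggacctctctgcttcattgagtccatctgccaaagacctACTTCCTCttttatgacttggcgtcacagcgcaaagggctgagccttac
Tnfrsf13c (chr15:82224381-82224630, minus strand): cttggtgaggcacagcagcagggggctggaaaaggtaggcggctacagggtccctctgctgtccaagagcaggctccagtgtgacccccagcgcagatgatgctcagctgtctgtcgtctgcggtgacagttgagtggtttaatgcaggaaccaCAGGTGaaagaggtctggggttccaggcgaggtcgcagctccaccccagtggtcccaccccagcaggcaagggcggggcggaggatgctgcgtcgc
Tnfrsf17 (chr16:11313559-11313808, plus strand): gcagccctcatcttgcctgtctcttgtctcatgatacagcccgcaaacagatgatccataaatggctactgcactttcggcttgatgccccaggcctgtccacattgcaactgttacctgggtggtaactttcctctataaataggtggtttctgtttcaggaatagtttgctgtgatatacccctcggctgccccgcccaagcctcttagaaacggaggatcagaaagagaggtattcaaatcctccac
Letters of 5 motifs of B lineage factors were searched on both strands. CCCNNGGG, the core of the EBF1 motif, was found in 11.8% of all 32851 windows and, among the members, before Cd22. GAGGAAGT, a form bound by the ETS factor PU.1, was found in 2.44% of windows and, among the members, before Cd72, on the opposite strand. CAGGTG, the E-box bound by E2A, was found in 17.2% of windows and in 4 of the 9 windows of members, among them those of Cd22 and Tnfrsf13c. GGGACTTT, the start of a site bound by NF-kB, and the octamer ATTTGCAT were found in 1.21% and 1.60% of windows and in 0 of the 9. The window of Tnfrsf17 held none of the 5. These matches describe letters only.

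CD40 and CD83 belong to contact with helper T cells and to activation. CD40 receives CD40 ligand, and CD83, which appears on stimulated B cells and dendritic cells, stabilises MHC class II at the surface. Cd83 read 5.43, 5.86 and 5.75 in the lamina propria and 5.21, 5.05 and 4.86 in the marrow. Every lamina propria pool lay above every marrow pool, by a gap of 0.21. Its means of 5.68 ± 0.22 and 5.04 ± 0.17 (SD, n = 3 each) gave the largest difference of the 10 genes, 0.63 (95% interval 0.13 to 1.14) or 1.55-fold. Before adjustment it was the only member past 0.05 in limma, as were 5.53% of all genes upwards and 8.15% downwards. It missed the threshold over all genes (limma adjusted p = 0.356). Genes of its marrow level, 5 to 6, had median differences of 0.44 (pool 1) and 0.40 (pool 2), where Cd83 lay 0.38 and 0.81 higher. In pool 3 those genes had a median of -0.02, and Cd83 lay 0.71 above the marrow mean. When 1 array was left out, the difference of Cd83 ran from 0.54 to 0.76.

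Cd40 read 6.36, 6.62 and 6.97 in the lamina propria and 6.58, 6.35 and 6.11 in the marrow. Pools 2 and 3 lay above all marrow pools and pool 1 inside their range. The difference was 0.30 (95% interval -0.27 to 0.87, limma adjusted p = 0.442), with 0.62 in pool 3 alone. Of the genes with a marrow mean of 6 to 7, 6.78% were higher without overlap, and their medians in the lamina propria pools were -0.09, -0.13 and -0.03.

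Dendritic cells also carry CD40 and CD83, and their markers were read beside these genes. All 9 had a positive difference, against 67.6% of all genes, and 0 were without overlap, against 14.8%. Their mean values were 4.59 to 5.15 in the lamina propria pools and 4.54 to 4.66 in the marrow pools, a level at which most genes lay higher in pools 1 and 2. The dendritic cell markers had medians of 0.44, 0.28 and 0.01 above the marrow mean in pools 1 to 3. Above all marrow pools lay 8, 6 and 1 of the 9, against 59.7%, 58.4% and 24.8% of all genes. Of 8 measured macrophage markers 6 had a positive difference, against 67.6% of all genes. Of the 8, 3 were higher without overlap, against 14.8%, and 1 was lower, against 7.27%. The macrophage medians in pools 1 to 3 were 0.32, 0.32 and 0.70. Above all marrow pools lay 6, 5 and 5 of these markers, against 59.7%, 58.4% and 24.8% of all genes. Csf1r, the receptor for the macrophage growth factor, read 5.23, 5.22 and 5.58 against 4.55, 4.74 and 4.597, whereas Cd68, a lysosomal glycoprotein of macrophages, read 5.52, 5.14 and 5.13 against 6.20, 6.18 and 5.54, lower without overlap. Lyz2, a myeloid lysozyme, read 5.16 and 5.29 in pools 1 and 2 and 7.88 in pool 3, against 6.29 to 6.94 in the marrow, so it lay below all marrow pools in the former and above them in the latter. Their part in the Cd83 and Cd40 values was not tested.

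The best known markers of mature B cells gave overlapping values in the tissues. Ms4a1, which encodes CD20, read 4.70, 4.42 and 5.11 in the lamina propria and 4.75, 4.21 and 5.41 in the marrow. Its difference was -0.04 (95% interval -0.85 to 0.77, limma adjusted p = 0.936), and the marrow pools alone spread over 1.21. Leaving out 1 array moved the difference from -0.34 to 0.27, so it has no direction. In pools 1 to 3 Ms4a1 lay -0.09, -0.36 and 0.32 from its marrow mean. The medians of genes at its marrow level, 4 to 5, were 0.52, 0.54 and 0.01.

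Cr2, the complement receptor that lowers the threshold of B cell activation, read 4.49, 4.67 and 4.29 in the lamina propria and 4.51, 4.67 and 4.55 in the marrow. The tissues overlapped, and the difference was -0.09 (95% interval -0.56 to 0.37, limma adjusted p = 0.748). In pools 1 to 3 Cr2 lay -0.09, 0.10 and -0.29 from its marrow mean, below the medians of genes at its marrow level. Those medians, at 4 to 5, were 0.52, 0.54 and 0.01.

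Fcer2a, the low-affinity IgE receptor CD23, read 5.01, 4.90 and 4.31 in the lamina propria and 4.50, 4.17 and 4.20 in the marrow. Pools 1 and 2 lay above all marrow pools and pool 3 inside their range. The difference was 0.45 (95% interval -0.14 to 1.04, limma adjusted p = 0.363). Without lamina propria pool 3 it was 0.67 and passed (limma adjusted p = 0.0339) as the only member, when 24.1% of all genes were called higher and 12.1% lower. In pool 3 alone it was 0.02. Genes of its marrow level had median differences of 0.52 (pool 1) and 0.54 (pool 2), against 0.72 and 0.61 for Fcer2a.

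Cr2 and Fcer2a lay below the median of all probe sets in all 6 arrays, and Ms4a1 and Tnfrsf17 in 5 of 6. Cd72, Cd40, Tnfrsf13b and Tnfrsf13c lay above it in all 6. Probe sets differ in how strongly they bind, so these positions give no order of expression between genes. Follicular dendritic cells, stromal cells that also carry CD21 and CD23, had 4 of 5 measured markers with a positive difference, against 67.6% of all genes. Of these, 3 were without overlap, against 14.8%. At their marrow levels, 4 to 5 (Cxcl13) and 5 to 6 (Mfge8 and Clu), 24.0% and 17.1% of genes were higher without overlap. The mean values of the markers were 5.66 to 6.28 in the lamina propria pools and 5.80 to 6.002 in the marrow pools. Their part in the values of Cr2 and Fcer2a was not tested.

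**Figure D3:**
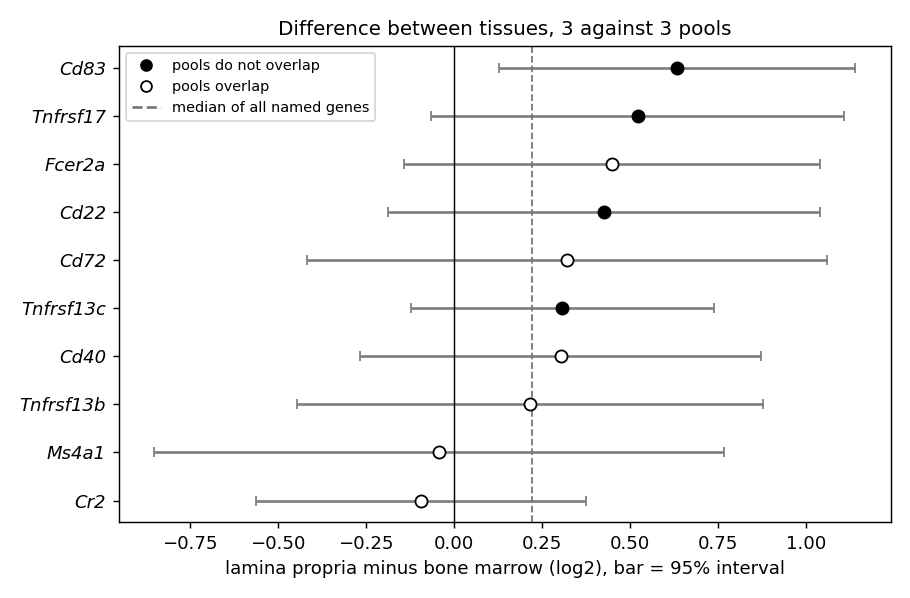
Difference between lamina propria and bone marrow (log2) for each gene, with its 95% interval from limma (n = 3 pools per tissue). Filled points mark genes whose pools do not overlap, and the dashed line is the median of all named genes, 0.22. The interval of Cd83, from 0.13 to 1.14, is the only one that does not include 0.

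In pool 3, the lamina propria array without the general shift, 6 of the 10 genes lay above all marrow pools (Cd22, Cd72, Cd40, Cd83, Tnfrsf13c and Tnfrsf17), against 24.8% of all genes. Cr2 and Tnfrsf13b lay below all marrow pools, against 26.7%, and Ms4a1 and Fcer2a inside their range. The members' median in pool 3 was 0.27 above the marrow mean, against -0.01 over all genes. In pools 1 and 2, 6 and 8 members lay above all marrow pools, against 59.7% and 58.4% of all genes, and 1 and 0 below, against 24.1% and 25.2%. The members' medians there were 0.30 and 0.40, against 0.31 and 0.31. Pools 1 and 2 together lay above the marrow without overlap for 6 members, against 51.2% of all genes, and below it for 0, against 18.7%. These are readings of single arrays, with no test.

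The signalling genes downstream of BAFF and CD40 gave no common direction. Both receptors act through TRAF adaptors that release the kinase NIK (Map3k14) and turn on the non-canonical NF-kB pair p52 and RelB. Of 20 listed genes 16 were measured, 10 with a positive and 6 with a negative difference, and none passed over all genes. Relb and Pim2 were higher without overlap, against 14.8% of all genes, and 0 were lower, against 7.27%. Without lamina propria pool 3, Pim2 (0.87, limma adjusted p = 0.0265), Traf6 (-1.77, 0.00806) and Bcl2l1 (-2.01, 0.0223) passed, as they did with array weights. The list's median was 0.11, below that of all genes. The median was -0.13 without lamina propria pool 3 and 0.20 in pool 3 alone.

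Among the ligands, Tnfsf13b, which encodes BAFF and is made mainly by myeloid and stromal cells, read 5.02, 4.82 and 4.42 in the lamina propria and 4.35, 4.42 and 4.36 in the marrow. Pools 1 and 2 lay above the marrow, where genes of its level also lay higher, and pool 3 at its upper edge. The difference was 0.37 (limma adjusted p = 0.371), and 0.54 without pool 3 (limma adjusted p = 0.0377), and it also passed with array weights (limma adjusted p = 0.0496). Cd40lg, the T cell ligand of CD40, differed by 0.18. T cell markers were higher in the lamina propria for 7 of 7 genes, against 67.6% of all genes, and 5 were without overlap, against 14.8%. Their mean values were 5.10 to 5.501 against 4.64 to 4.98 in the marrow, a level at which most genes lay higher in pools 1 and 2. In pool 3, 5 of the 7 T cell markers lay above all marrow pools, against 24.8% of all genes. Their median there was 0.26 above the marrow mean, against -0.01 over all genes. The part of T cells in the Cd40lg values was not tested. APRIL has no probe set of its own among those named and was not analysed here, nor was Traf3.

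In the non-canonical NF-kB branch, Relb read 5.85, 5.97 and 6.49 in the lamina propria and 5.80, 5.82 and 5.30 in the marrow, a difference of 0.46 (limma adjusted p = 0.363). Its lamina propria pools lay above all marrow pools, pool 1 by a small margin. Genes of its marrow level, 5 to 6, had median differences of 0.44 and 0.40 in pools 1 and 2, against 0.21 and 0.33 for Relb. Nfkb2, the precursor of p52, and Map3k14 differed by 0.24 and 0.19, both with overlap. Pim2, a survival kinase induced by BAFF, read 5.55, 6.005 and 5.24 against 4.79, 4.97 and 4.95, a difference of 0.69 (95% interval 0.12 to 1.27, limma adjusted p = 0.356). Every lamina propria pool lay above every marrow pool, as for Cd83. Of the genes at the marrow level of Pim2, 4 to 5, 24.0% were higher without overlap.

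The largest negative differences of this list belonged to Bcl2l1, the survival factor BCL-XL, at -1.10, and Traf6, an adaptor of CD40 and of Toll-like receptors, at -0.98. Traf6 read 5.72, 6.03 and 8.24 in the lamina propria and 7.64, 7.47 and 7.81 in the marrow, and Bcl2l1 read 5.92, 5.29 and 8.33 against 7.30, 7.28 and 8.27. Pools 1 and 2 lay far below and pool 3 above the marrow in both, so neither has one direction across the lamina propria pools. Caml, whose product binds TACI, differed by -0.47, with overlap.

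**Figure D4:**
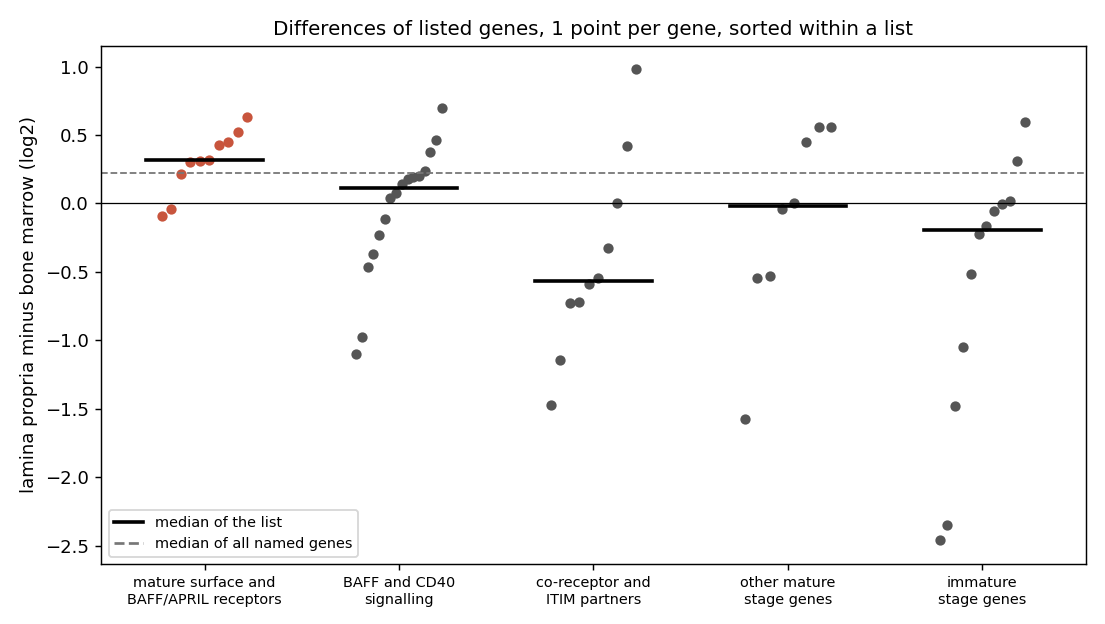
Differences between lamina propria and bone marrow (log2), 1 point per gene, for the 10 genes (red) and 4 lists of related genes (grey), with the median of each list as a bar and that of all named genes as a dashed line. The list of co-receptor and phosphatase partners reaches down to -1.47 and the 10 genes lie between -0.09 and 0.63, but 8 of the 10 partners and 2 of the 10 genes have a marrow mean above 7, where pools 1 and 2 lie lower for most genes.

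The partners of CR2, CD22 and CD72 at the membrane mostly had lower means in the lamina propria. Of 12 listed genes 10 were measured, 3 with a positive and 7 with a negative difference, with a median of -0.56, and none passed over all genes. Grb2 and Fcgr2b were higher without overlap, against 14.8% of all genes, and 0 were lower, against 7.27%. Without lamina propria pool 3, Pik3ap1 (-2.24, limma adjusted p = 0.00611), Vav1 (-1.94, 0.0073), Inpp5d (-1.13, 0.0368) and Grb2 (1.32, 0.0415) passed, as they did with array weights. The list's medians in pools 1 and 2 were -0.76 and -0.92. Of these partners 8 of 10 had a marrow mean of 7 to 10, a range in which the medians of all genes in these pools were -1.02 to -1.55, whereas 2 of the 10 surface genes did. Cd81, the tetraspanin of the CR2 complex, read 6.78, 6.83 and 7.64 against 7.59, 8.497 and 7.33, a difference of -0.72 (limma adjusted p = 0.359). Ptpn6, the phosphatase SHP-1 that CD22 and CD72 recruit, read 7.41, 7.68 and 8.63 against 7.99, 7.82 and 7.90, with pools 1 and 2 below and pool 3 above the marrow. Pik3ap1, Vav1 and Inpp5d, which carry or curb the signal of the B cell receptor through phosphoinositides and small GTPases, differed by -1.47, -1.15 and -0.73. In pool 3 alone these 3 lay 0.07, 0.45 and 0.08 above the marrow mean, and the list's median was 0.19. The adaptor Grb2, at 0.98, read 7.74, 8.96 and 7.32 against 7.10, 7.003 and 6.98. Lyn was not analysed here.

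Other genes of the mature stage were also mixed, with 4 of 8 measured genes positive and a median of -0.02. Fcrl1, a receptor of the Fc receptor-like family on B cells, was higher without overlap, at 4.43, 4.93 and 4.58 against 4.33, 4.02 and 3.92, a difference of 0.56 (limma adjusted p = 0.356). Of the genes at its marrow level, 4 to 5, 24.0% were higher without overlap. In pool 1 Fcrl1 lay 0.34 above its marrow mean, against a median of 0.52 for those genes. Cxcr5, the follicle homing receptor, read 3.33 to 4.14 in the lamina propria and 3.28 to 3.99 in the marrow, a difference of -0.04. Klf2, a factor that keeps lymphocytes in circulation, differed by 0.56, Ltb, a lymphotoxin chain, by -0.54, and Cd55, an inhibitor of complement, by -1.58, all with overlap. Cd55 read 3.43, 4.49 and 6.38 against 5.87, 5.99 and 7.18, and in pool 3 exceeded the marrow mean by 0.03; without that pool the difference was -2.38 (limma adjusted p = 0.0267), and it also passed with array weights. Ighd was not analysed here.

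Genes of the immature stages served as the counterpart. Of 12 measured genes 3 had a positive difference, against 67.6% of all genes, and 9 a negative one. Of these 9, 5 were without overlap (Il7r, Rag2, Cd93, Rag1 and Dntt), against 7.27% of all genes. Among the 12, 1, Sox4, was higher without overlap, against 14.8%. Vpreb1 and Igll1, counted as negative, differed by -0.06 and -0.002, and Vpreb2 by 0.31, all with overlap. None passed over all genes in the fit of all 6 arrays without weights, trend or block, and the list's median was -0.19. Rag2, a subunit of the recombinase, read 5.67, 5.75 and 6.06 against 7.76, 8.49 and 8.28, a difference of -2.35 (limma adjusted p = 0.155). Genes of its marrow level, 8 to 9, had medians of -1.38, -1.55 and -0.04 in pools 1 to 3, against -2.51, -2.43 and -2.11 for Rag2. Rag2 passed with an intensity trend and robust variances (limma adjusted p = 0.0456), with array weights (0.0152) and without lamina propria pool 3 (0.00759). Cd93, Il7r and Rag1 passed with array weights and without that pool, at limma adjusted p of 0.0101 to 0.0259. Cd93, a surface marker of immature and transitional B cells that is lost at maturity, read 8.21, 7.57 and 8.99 in the lamina propria and 9.72, 9.87 and 9.64 in the marrow. Genes of its marrow level, 9 to 10, had medians of -1.03 and -1.10 in pools 1 and 2, against -1.53 and -2.17 for Cd93. Pool 3 as well lay below every marrow pool, and the difference was -1.48 (95% interval -2.31 to -0.65, limma adjusted p = 0.299). In pool 3 the list's median was -0.37, against 0.27 for the 10 mature surface and receptor genes. The difference between these lists was not tested.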

How the data were processed

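Per the submitters' processing notes, the authors deposited log2 values from RMA, run with Affymetrix Expression Console 1.3.0.187. Per the labels' protocols, 4.5 to 47 ng of total RNA were amplified. The deposited arrays still differed in spread, with an interquartile range of 2.00 and 1.94 in lamina propria pools 1 and 2 and 2.41 to 2.47 in the others, so a second normalization could move values. Values were used as deposited. Of 35556 probe sets, 21789 had 1 gene symbol. The probe set with the highest mean stood for a gene, which gave 19938 genes.

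The tissues were compared with limma 3.58.1 in R 4.3.3 (lmFit, eBayes, two-sided, no block). P-values were Benjamini-Hochberg adjusted over the 19938 genes, with 0.05 as threshold. They set each difference against the spread between pools, which the labels call independent, with each variance drawn towards that of all genes. Each difference is the lamina propria mean less the marrow mean. No overlap means that all 3 pools of a tissue lie on 1 side of the other's.

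The members and lists were chosen with earlier results of these data known. All members were named, and of each list the 4 genes with the largest differences and 13 fixed genes where measured. Dntt, Sox4, Vpreb1, Vpreb2, Igll1, Fcgr2b and the marker genes were singled out once their values were known. The fit was tested on simulated data that took the spread of the marrow arrays for both tissues. The lamina propria pools correlated less with each other than the marrow pools did, so that test does not cover their spread. Alternatives were other scalings, a dim filter (mean under 5), other variance models, the mean of probe sets, a block and left-out arrays. Figures used matplotlib 3.10.9.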

Additional observations from a re-analysis of the deposited data

How the results depend on the processing

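The 0 calls among the 10 genes held under every alternative but 1. Leaving out 1 array gave 0 to 1 members higher, 0 to 4806 genes higher and 0 to 2416 lower, the highest each without lamina propria pool 3, and 0 to 1 members lower without overlap. Array weights called 3368 genes higher and 2218 lower, an intensity trend with robust variances 1 and 39, and the replicate block 2 and 14, with 0 members in each. Same-numbered pools deviated together at r = 0.13, 0.05 and 0.23. Lamina propria pools 1 and 3 correlated best with the marrow pool of their own number, and pool 2 with marrow pool 1. These values do not settle whether the numbers pair the samples, so the block was kept as an alternative only. Without overlap 4 members were higher, 3 with median centring, 4 to 6 without 1 array (6 without lamina propria pool 3, against 51.2% of all genes, and 6 without marrow pool 1, against 21.6%) and 6 in pool 3 alone (24.8%). With quantile normalization 1 was lower, and in pool 3 alone 2 (26.7%). Of the other genes named, the block changed the call of Rag2 alone (limma adjusted p = 0.0476).

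The members' median was 0.22 with median centring, 0.44 with quantile normalization and 0.30 to 0.47 without 1 array. Cd22, Cd40, Cd83, Tnfrsf13c and Tnfrsf17 kept a positive difference in all 14 alternatives and Fcer2a in 13. Differences changed sign in pool 3 alone for Ms4a1 (0.32), Tnfrsf13b (-0.30), Cd40lg (-0.055), Traf6 (0.60), Bcl2l1 (0.72), Inpp5d (0.082), Vav1 (0.45), Pik3ap1 (0.072) and Cd55 (0.033). They did so with array weights for Ms4a1 (0.0067) and Ptpn6 (-0.30), with median centring for Ptpn6 (-0.093) and with quantile normalization for Cd40lg (-0.048). Without 1 array, Ms4a1 ran from -0.34 to 0.27, Cr2 from -0.19 to 0.0039, Cd72 from -0.0029 to 0.51, Ptpn6 from -0.36 to 0.25 and Cxcr5 from -0.27 to 0.15. The causes were not tested.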
